A study of Mus musculus with 11 samples.

Results

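The 42 genes described here encode ribosome biogenesis factors, the proteins that transcribe, cut, modify and fold ribosomal RNA (rRNA) precursors before a ribosome can work. They were chosen by gene name from the known steps of the pathway: 3 subunits of RNA polymerase I, 8 proteins of small nucleolar ribonucleoproteins (snoRNPs), 14 factors of the small subunit, 13 factors of the large subunit and 4 nucleolar proteins that act in several steps. All 42 were among the 47131 genes of the count table, and all 42 were among the 14840 genes with enough counts to be tested. RNA was sequenced after poly(A) selection from mouse colorectal organoids, epithelial cultures grown in Matrigel and IntestiCult medium, whose donors were female C57BL/6J mice 6 to 8 weeks old. Organoids of 6 libraries had been given 10 pM NAP for 48 h, and organoids of 5 libraries were controls. The labels do not expand the name NAP, describe the controls once as having no treatment and once as having PBS vehicle, and name no genetic change in either group. Each library is labelled as a biological replicate of batch 1, with no word on whether animals or cultures were separate, so a p-value here measures the spread between libraries, part of which may be technical.

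Ribosome production starts in the nucleolus, where polymerase I copies ribosomal DNA into 1 long precursor RNA. Small nucleolar RNAs in complex with proteins guide the methylation and pseudouridylation of this precursor and, in the case of U3, help to fold it, while the small subunit processome and a separate series of large subunit assembly factors cut and package the parts. Dividing cells make many ribosomes, and in the intestine the stem and progenitor cells of the crypt are richer in nucleolar factors than the mature cells that face the lumen. MYC is a known activator of many of these genes.

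Count totals ranged from 16546263 to 21947414 per library. Single members had from 45 to 12883 counts in a library, so no member was close to the limit of a count of 0, which is 0.137 to 0.181 CPM (counts scaled to library size) and covers counting error only. All 10 epithelial markers were tested, with a summed level of 9614 to 17846 CPM in controls and 10709.7 to 14220 CPM after NAP. Of the markers of other tissues that colon fragments could carry, 3 of 7 immune, 1 of 7 fibroblast and smooth muscle, 1 of 4 endothelial and 1 of 5 enteric neuron and glia markers had enough counts for the test. The summed level of the tested markers of each of these 4 lists lay between 0.0716 and 23.4 CPM in every library.

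Members were lower after NAP far more often than higher, but few passed the test. Nob1, the endonuclease that makes the final cut at the end of the small subunit rRNA, was 1.56-fold lower after NAP, and Polr1c, a subunit shared by polymerases I and III, was 1.70-fold lower. They were the 2 of 42 members past an adjusted p of 0.05, and no member was higher at that threshold (edgeR's quasi-likelihood test with Benjamini-Hochberg adjustment over all tested genes). Of all tested genes, 1.07% were called lower. The log2 fold change was below 0 for 41 of the 42 members, against 55.3% of all tested genes, and its median was −0.53 over the members, against −0.07 over all tested genes. At an unadjusted p below 0.05, 11 of 42 members were lower and 0 higher, where 12.7% of all tested genes were lower. Every NAP library lay below every control for Nob1, Polr1c and Rrp1, a large subunit factor, which makes 3 of 42 members against 2.57% of all tested genes.

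**Figure D1:**
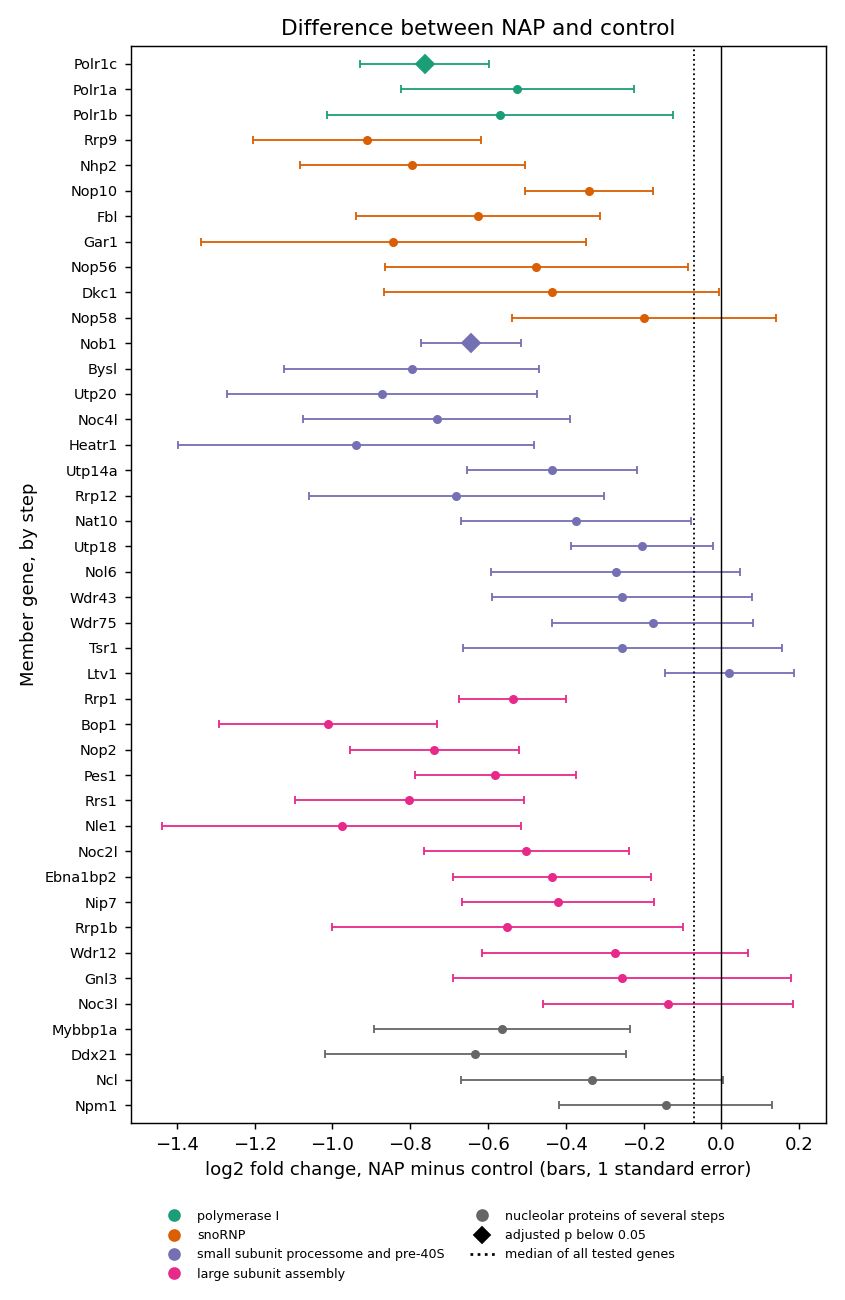
The log2 fold change of each of the 42 members (points) with 1 standard error (bars) is plotted by pathway step, with diamonds for an adjusted p below 0.05 and a dotted line at the median of all tested genes, −0.07. Ltv1 alone lies above 0, at 0.02, and the diamonds are Polr1c and Nob1.

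Among the control libraries the members did not lie level. Controls 1 and 4 were the 2 highest controls for 35 of 42 members, against 29.7% of all tested genes, and controls 2 and 5 were the 2 lowest for 35 of 42, against 34.0%. Both orders held at once for 32 members, against 3488 of the 14840 tested genes. Among the NAP libraries, numbers 2, 4 and 5 were the 3 lowest for 30 of 42 members, against 16.2% of all tested genes. Polr1c and Rrp1 were among these members, and Nob1 was not. The highest control exceeded the lowest by a median factor of 2.96 over the members and 2.29 over all tested genes, with a range over members from 1.11 for Nob1 to 7.72 for Rrp1b. Summed over the 42 genes, the level was 3057, 1483, 2381, 3688 and 1498 CPM in controls 1 to 5 and 2025, 1443, 2333, 1431, 1391 and 2092 CPM in NAP libraries 1 to 6. The groups overlapped in this sum: controls 2 and 5 lay below NAP libraries 1, 3 and 6, and the other 3 controls above every NAP library.

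**Figure D2:**
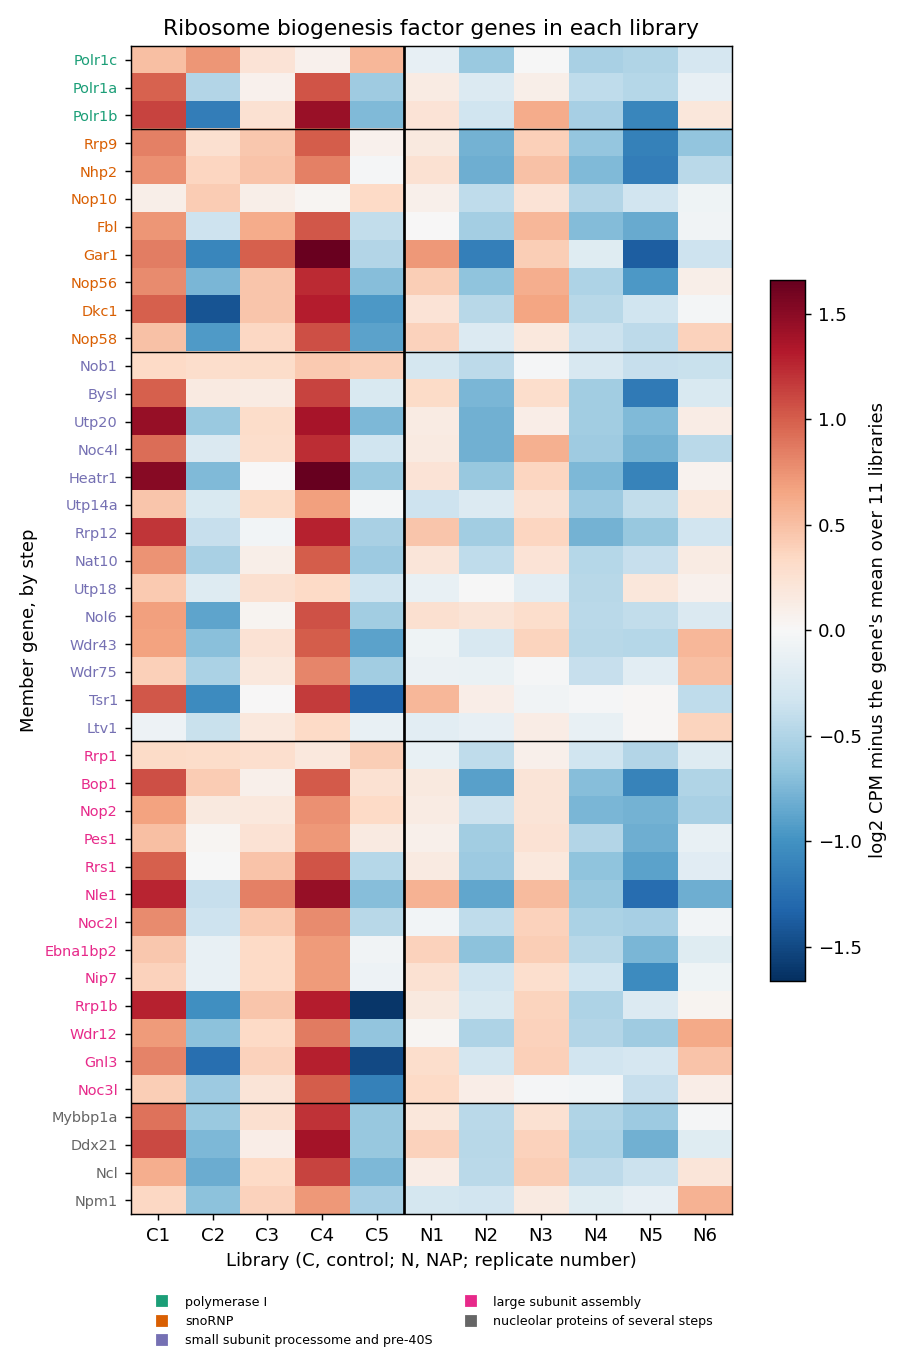
Each row is a member, each column a library, and the colour is log2 CPM minus the gene's mean over the 11 libraries. Columns C1 and C4 are high and C2 and C5 low for most rows, and the rows of Nob1, Polr1c and Rrp1 show a break between controls and NAP libraries instead. Among the NAP columns, N2, N4 and N5 are the lowest for most rows, those of Polr1c and Rrp1 included.

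Markers of crypt cells divided the controls in the same way as most members. The summed level of the 11 tested of 12 crypt base stem cell markers (Lgr5, Ascl2, Axin2 and others, Olfm4 being too low to test) was 787, 189, 525, 1238 and 175 CPM in controls 1 to 5 and 506, 281, 514, 281, 282 and 367 CPM in NAP libraries 1 to 6. For 14 markers of cycling cells (Mki67, Top2a, the Mcm genes and others) it was 1183, 364, 889, 1447 and 355 CPM in controls and 613, 672, 861, 652, 674 and 777 CPM after NAP. For 11 markers of absorptive colonocytes (Car1, Car4, Slc26a3 and others) it was 5509.9, 20036, 8997, 4244 and 19460.0 CPM in controls and 11775, 16245, 10952, 15612, 14904 and 12597 CPM after NAP. Controls 1 and 4 were thus the highest controls in stem and cycling markers and the lowest in colonocyte markers, and controls 2 and 5 the reverse. Although NAP 1 had the lowest cycling sum, NAP libraries 2, 4 and 5 were the lowest NAP libraries for 12 of 14 single cycling markers. The same held for 9 of 11 tested stem markers and 0 of 11 colonocyte markers, against 16.2% of all tested genes. By single genes, 11 of 11 tested stem markers and 13 of 14 cycling markers had a log2 fold change below 0, none of them past the adjusted threshold, and 6 of 11 colonocyte markers were above 0, with Ceacam1 called higher (log2 fold change 0.94, SE 0.18, adjusted p = 0.0383). In whole organoids, fewer cells of a type and less RNA per cell cannot be told apart, and the part of cell make-up in the members' differences was not tested.

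**Figure D3:**
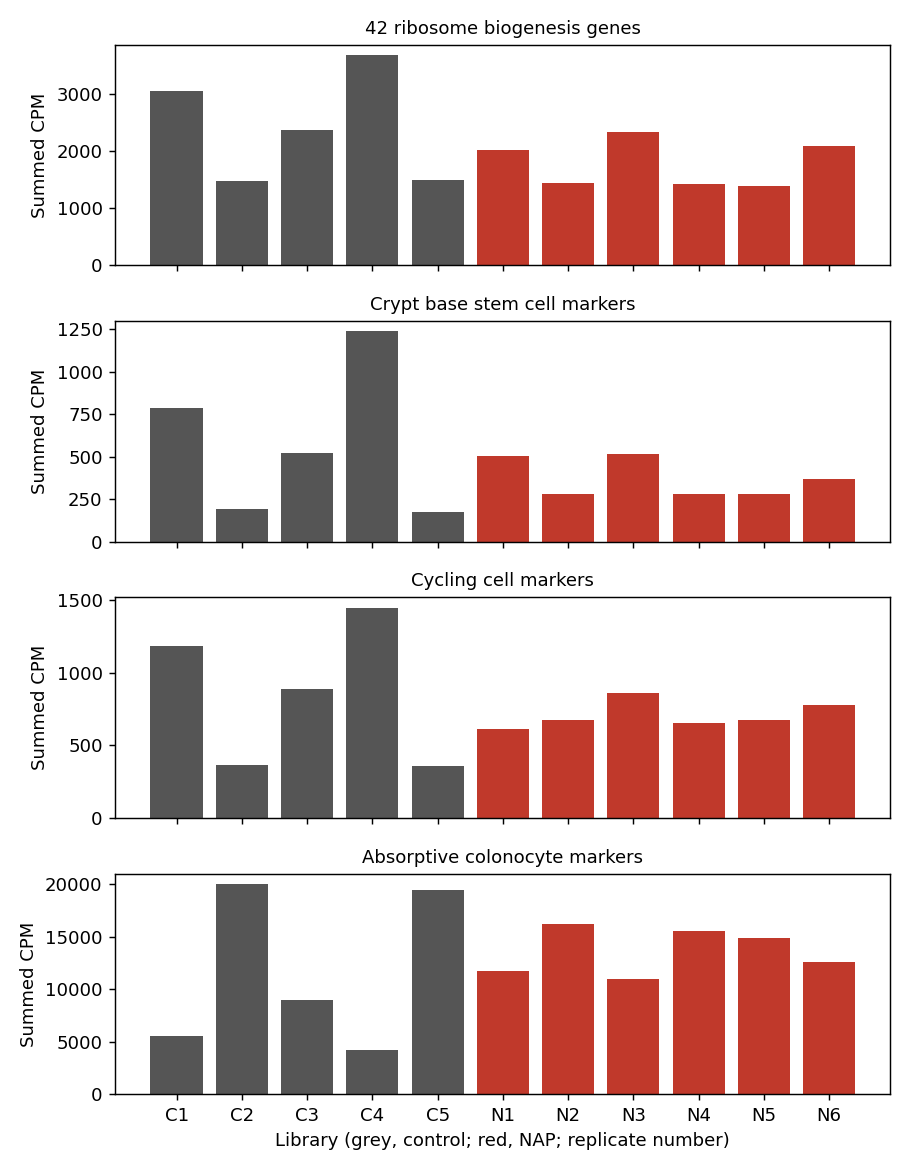
Bars give the summed CPM of the 42 members and of the stem, cycling and colonocyte markers in each library (grey, controls; red, NAP). The members are highest in controls 1 and 4, where stem and cycling markers are also highest and colonocyte markers lowest.

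The count of members below 0 depended on these controls, whereas the levels of Nob1, Polr1c and Rrp1 did not follow this order. With controls 1 and 4 left out, 19 of 42 members had a log2 fold change below 0, against 48.5% of all genes tested in that fit, and the members' median was 0.11. Nob1 (−0.59, adjusted p = 0.0355) and Polr1c (−0.82, adjusted p = 0.0267) were the 2 members called, where 5.46% of all genes were called lower, a share near that of the members. Nob1, Polr1c and Rrp1 were the 3 members without overlap, against 7.37% of all genes with 3 controls left, again near the members' share. These 3 had no overlap with all 11 libraries. Leaving controls out could bring overlap only through rescaling, so their staying apart is no further evidence. With controls 2 and 5 left out, 42 of 42 members were below 0, against 50.2% of all genes, and the members' median was −0.80. Called lower were 7 members, against 2.61% of all genes: Mybbp1a, Nob1, Noc2l, Polr1a, Rrp1b, Rrs1 and Utp20. No overlap was left for 14 members, against 6.33% of all genes. Polr1c was not past the threshold in that fit (−0.58, adjusted p = 0.0650). With a score of stem minus colonocyte markers in each library as a covariate, 26 members were below 0, against 46.6% of all genes, with a median of −0.16. Bop1, Nob1, Nop2, Polr1c, Rrp1, Rrp9 and Rrs1 were then called lower and Gnl3 higher, 8 members in either direction against 21.5% of all genes, 1635 of which were lower and 1549 higher. Nob1 had −0.62 (adjusted p = 0.00591) and Polr1c −0.79 (adjusted p = 0.00731). These 3 fits were chosen after seeing the data.

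**Figure D4:**
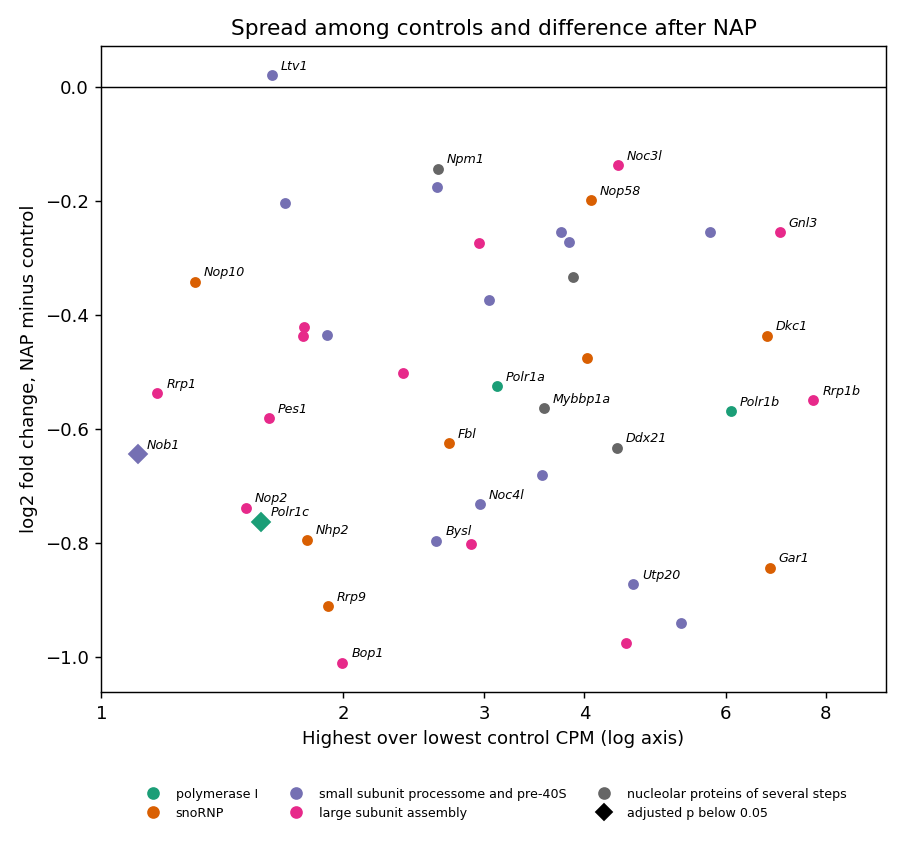
For each member the ratio of the highest to the lowest control (horizontal, log axis) is set beside its log2 fold change (vertical), with diamonds for an adjusted p below 0.05. Nob1, Rrp1, Nop10, Nop2 and Polr1c lie at the left, with ratios of 1.11 to 1.58, and Rrp1b, Gnl3, Gar1 and Dkc1 at the right, with ratios of 6.76 to 7.72.

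Per unit of gene length, members differed widely in level in the controls. Npm1 was the most abundant, at 101 ± 39.5 FPKM (mean ± SD, n = 5 controls; FPKM, the authors' fragment values scaled to gene length and library size). Rrp1 followed at 60.2 ± 3.55 FPKM, and its paralog Rrp1b stood near the bottom, at 3.42 ± 2.47 FPKM. Nop10 had 53.8 ± 6.87, Fbl 43.4 ± 18.00 and Polr1c 42.8 ± 7.87 FPKM, means that lay within the SD of Fbl of each other. Wdr12 was the least abundant, at 1.58 ± 0.737 FPKM.

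In the first step, all 3 polymerase I subunit genes had a negative log2 fold change, and 1 was called. On GRCm39, Polr1c (identifier 20016) occupies chromosome 17 from 46554846 to 46558971, minus strand. Its level was 60.5, 71.04, 50.4, 44.9 and 62.7 CPM in controls 1 to 5 and 39.1, 28.01, 42.7, 29.4, 30.3 and 35.3 CPM in NAP libraries 1 to 6. Every NAP library lay below every control, and the highest controls were numbers 2 and 5, the lowest for most other members. The means were 57.9 ± 10.4 CPM (SD, n = 5) and 34.1 ± 5.91 CPM (SD, n = 6; log2 fold change −0.76, SE 0.17, adjusted p = 0.0420). Polr1a encodes the largest, catalytic subunit, and its level was 58.2, 20.9, 30.9, 60.6 and 19.5 CPM in controls and 32.4, 25.02, 31.5, 21.9, 21.2 and 26.6 CPM after NAP. Controls 1 and 4 stood far above the rest, and all 6 NAP libraries lay within the range of the controls (log2 fold change −0.53, SE 0.30, adjusted p = 0.307). Without those 2 controls its log2 fold change was 0.18. Polr1b encodes the second-largest subunit, which helps to form the active site, and had 47.9, 9.78, 26.2, 59.5 and 13.1 CPM in controls and 25.7, 17.4, 33.5, 14.95, 10.2 and 24.9 CPM after NAP. It showed the same pair of high controls and full overlap (log2 fold change −0.57, SE 0.44, adjusted p = 0.459), with 0.39 without them.

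The promoters of Polr1c, Nob1 and Rrp1, the 3 members whose groups did not overlap, and of Nop2, 1 of 2 members with a MYC-type E-box there, are shown so that the motifs can be read beside the values. Each is the 250 bases just before the gene's start, 5′ to 3′ on the strand of the gene, from RefSeq on GRCm38.p6: chr17:46248046-46248295 on the minus strand for Polr1c, chr8:107425039-107425288 on the minus strand for Nob1, chr10:78413044-78413293 on the minus strand for Rrp1 and chr6:125131633-125131882 on the plus strand for Nop2. Capitals mark the E-box CACGTG, the ETS motif CCGGAAG or CTTCCGG, and the GC box GGGCGG or CCGCCC.
Polr1c: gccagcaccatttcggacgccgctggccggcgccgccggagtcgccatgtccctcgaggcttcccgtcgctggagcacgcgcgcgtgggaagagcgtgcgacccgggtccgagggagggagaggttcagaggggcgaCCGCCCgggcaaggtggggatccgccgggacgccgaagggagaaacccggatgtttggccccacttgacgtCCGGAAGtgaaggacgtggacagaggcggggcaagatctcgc
Nob1: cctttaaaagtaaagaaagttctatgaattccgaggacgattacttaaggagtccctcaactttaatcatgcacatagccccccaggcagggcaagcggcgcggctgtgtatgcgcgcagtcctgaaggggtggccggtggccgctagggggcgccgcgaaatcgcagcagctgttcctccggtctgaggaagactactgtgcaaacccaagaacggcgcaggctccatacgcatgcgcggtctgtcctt
Rrp1: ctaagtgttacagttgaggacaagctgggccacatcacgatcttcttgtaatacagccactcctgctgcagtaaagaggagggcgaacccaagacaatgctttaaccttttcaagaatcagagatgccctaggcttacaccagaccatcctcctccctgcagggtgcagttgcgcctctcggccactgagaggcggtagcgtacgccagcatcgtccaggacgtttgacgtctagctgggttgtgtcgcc
Nop2: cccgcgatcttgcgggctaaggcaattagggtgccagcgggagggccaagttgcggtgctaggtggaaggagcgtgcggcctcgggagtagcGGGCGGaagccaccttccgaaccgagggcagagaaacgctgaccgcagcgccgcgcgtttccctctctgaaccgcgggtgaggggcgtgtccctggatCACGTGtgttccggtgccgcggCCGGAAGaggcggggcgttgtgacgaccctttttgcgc
The Polr1c promoter held 1 GC box and 1 ETS motif, and those of Nob1 and Rrp1 held none of the 3 motifs. In Nop2 the E-box began 60 bases before the start. Promoters were found for 36 of the 42 members. The E-box was in 2 of them (Utp18 and Nop2, 5.56%), against 6.86% of 27025 genes with a promoter and 9.80% of the 10920 of these that were tested. The ETS motif was in 8 (22.2%), against 7.83% of all and 15.1% of tested genes, and the GC box in 22 (61.1%), against 35.4% and 61.03%. Beside tested genes, the members' share was thus nearly the same for the GC box, lower for the E-box and higher for the ETS motif, from counts of 22, 2 and 8 promoters that describe the letters alone.

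Among the 8 snoRNP protein genes all log2 fold changes were negative, with a median of −0.55. None was called, and 2 were lower at an unadjusted p below 0.05, where 12.7% of all tested genes were lower. Rrp9 encodes a protein specific to the U3 snoRNP, which is needed for the early cuts, and had 24.6, 16.4, 18.7, 27.6 and 14.4 CPM in controls and 15.4, 7.90, 17.99, 8.75, 6.22 and 8.67 CPM after NAP. NAP libraries 2, 4, 5 and 6 lay below every control, and libraries 1 and 3 within their range (log2 fold change −0.91, SE 0.29, adjusted p = 0.0928). Nhp2, a core protein of the H/ACA snoRNPs that guide pseudouridylation, had 56.2, 42.4, 46.1, 59.2 and 32.8 CPM in controls and 39.4, 18.9, 46.4, 19.8, 14.95 and 24.4 CPM after NAP. The same 4 NAP libraries lay below every control (log2 fold change −0.79, SE 0.29, adjusted p = 0.125).

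Nop10, the smallest H/ACA protein, was nearly level among controls, at 38.4, 47.8, 38.1, 36.6 and 45.04 CPM, and had 37.9, 26.7, 41.95, 25.4, 28.8 and 34.1 CPM after NAP. Its controls 2 and 5 were the highest, and NAP libraries 2, 4, 5 and 6 lay below all controls (log2 fold change −0.34, SE 0.16, adjusted p = 0.230). Fbl encodes fibrillarin, the ribose methyltransferase of the box C/D snoRNPs, and had 78.9, 37.4, 73.04, 97.1 and 35.8 CPM in controls and 47.9, 32.02, 69.97, 28.9, 26.4 and 45.5 CPM after NAP. NAP libraries 2, 4 and 5 lay below the lowest control, and controls 2 and 5 lay between the NAP libraries (log2 fold change −0.62, SE 0.31, adjusted p = 0.248). Nop58, a scaffold protein of the same snoRNPs, had the largest p of this step, with 64.8, 23.9, 58.7, 97.4 and 24.9 CPM in controls and 60.5, 39.3, 52.1, 36.1, 34.1 and 60.05 CPM after NAP. All 6 NAP values lay inside the range of the controls (log2 fold change −0.20, SE 0.34, adjusted p = 0.754), and the value without controls 1 and 4 was 0.41. The pseudouridine synthase gene Dkc1, its partner gene Gar1 and the box C/D gene Nop56 had log2 fold changes of −0.44, −0.84 and −0.48, with 4.03-fold to 6.81-fold ranges among their controls.

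Of the 14 small subunit genes, 13 had a negative log2 fold change, with a median of −0.40, and Nob1 was called. At an unadjusted p below 0.05, 3 were lower, against 12.7% of all tested genes. On GRCm39, Nob1 (identifier 67619) occupies chromosome 8 from 108139121 to 108151670, minus strand. Its level was 34.9, 33.7, 34.3, 37.4 and 36.4 CPM in controls 1 to 5 and 22.6, 20.4, 27.2, 22.9, 21.2 and 21.4 CPM in NAP libraries 1 to 6. The 5 controls were almost level, with no excess in numbers 1 and 4, and every NAP library was lower, number 3 the highest of them. The means were 35.3 ± 1.52 CPM (SD, n = 5) and 22.6 ± 2.41 CPM (SD, n = 6; log2 fold change −0.64, SE 0.13, adjusted p = 0.0386).

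Bysl encodes bystin, which binds the small subunit precursor until late in its maturation, and had 29.3, 16.3, 16.1, 32.02 and 12.2 CPM in controls and 18.3, 8.56, 17.9, 9.73, 6.41 and 12.3 CPM after NAP. Controls 1 and 4 stood above the other libraries, and NAP libraries 2, 4 and 5 below all controls (log2 fold change −0.80, SE 0.33, adjusted p = 0.166). Utp20, a large repeat protein of the processome, had 68.5, 16.3, 30.9, 64.8 and 14.9 CPM in controls and 27.6, 14.4, 27.05, 16.7, 15.1 and 27.3 CPM after NAP. Here too controls 1 and 4 were set apart, and 1 NAP library lay below the lowest control (log2 fold change −0.87, SE 0.40, adjusted p = 0.207). The log2 fold change without these 2 controls was 0.07.

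Noc4l, which joins the processome through Nop14, had 35.2, 15.6, 22.7, 43.5 and 14.7 CPM in controls and 20.4, 10.6, 27.9, 12.2, 10.6 and 13.4 CPM after NAP. NAP libraries 2, 4, 5 and 6 lay below all controls and library 3 above 3 of them (log2 fold change −0.73, SE 0.34, adjusted p = 0.216). Ltv1, which binds the late small subunit precursor and leaves it in the cytoplasm, had 30.3, 24.7, 36.3, 40.4 and 29.4 CPM in controls and 28.4, 29.2, 35.1, 29.4, 32.4 and 41.7 CPM after NAP. Its groups overlapped, and it was the member with the largest p (log2 fold change 0.02, SE 0.17, adjusted p = 0.955). The other 9 genes of this step had log2 fold changes from −0.94 for Heatr1, a processome scaffold protein, to −0.18 for Wdr75, a subunit that links the processome to transcription. Tsr1, a GTPase-like factor of the late precursor, ranged from 6.52 to 37.4 CPM in controls and from 12.3 to 24.2 CPM after NAP.

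All 13 large subunit assembly genes had a negative log2 fold change, with a median of −0.54. None was called. Against 12.7% of all tested genes, 5 were lower at an unadjusted p below 0.05: Bop1, Nop2, Pes1, Rrp1 and Rrs1. Rrp1 (identifier 18114) occupies chromosome 10 from 78236196 to 78248877 of the same build, minus strand, and encodes a nucleolar factor of large subunit precursors. Its level was 138, 136, 134, 125 and 147 CPM in controls and 101, 82.4, 117, 87.7, 78.8 and 95.3 CPM after NAP. No control was as low as any NAP library, yet the difference missed the adjusted threshold (1.45-fold lower, log2 fold change −0.54, SE 0.14, adjusted p = 0.0566). Its paralog Rrp1b had 34.1, 6.85, 19.4, 34.8 and 4.51 CPM in controls and 9.79 to 18.2 CPM after NAP. The paralogs thus differed in pattern: Rrp1b followed the division of the controls and had all NAP libraries inside their range (log2 fold change −0.55, SE 0.45, adjusted p = 0.482).

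Bop1 and Pes1 form, with Wdr12, the PeBoW complex, which is needed to process the large subunit rRNAs. Bop1 had 87.7, 55.6, 43.9, 84.3 and 49.4 CPM in controls and 46.6, 22.2, 48.4, 25.4, 19.3 and 29.3 CPM after NAP, the largest difference among all members (2.01-fold lower, log2 fold change −1.01, SE 0.28, adjusted p = 0.0664). NAP libraries 2, 4, 5 and 6 lay below every control, and libraries 1 and 3 did not. Pes1 had 78.2, 56.2, 65.2, 90.9 and 60.9 CPM in controls and 58.4, 36.99, 65.2, 39.4, 31.4 and 50.7 CPM after NAP, with the same 4 libraries below every control (log2 fold change −0.58, SE 0.21, adjusted p = 0.119). The third partner, Wdr12, had a log2 fold change of −0.27 (adjusted p = 0.657), and no NAP library lay below its lowest control.

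Nop2, which methylates a cytosine of the large subunit rRNA and has the E-box in its promoter, had 67.95, 47.99, 48.4, 72.6 and 53.99 CPM in controls and 46.97, 33.3, 49.7, 25.2, 24.8 and 29.4 CPM after NAP. Of its NAP libraries 5 lay below every control and number 3 lay above 2 of them (log2 fold change −0.74, SE 0.22, adjusted p = 0.0769). Noc3l, a partner in early large subunit precursors, had 16.3, 8.03, 14.2, 24.6 and 5.59 CPM in controls and 15.4, 13.2, 12.03, 11.9, 9.36 and 13.2 CPM after NAP. All NAP values lay inside the wider range of the controls (log2 fold change −0.14, SE 0.32, adjusted p = 0.822). The remaining genes ran from −0.98 for Nle1, a factor of late nuclear remodelling, to −0.26 for Gnl3, which encodes nucleostemin, a nucleolar GTPase of stem and dividing cells. For Gnl3 controls 1 and 4 had 51.5 and 71.3 CPM and controls 2 and 5 had 12.1 and 10.2 CPM, and the NAP libraries lay between these pairs, at 23.1 to 40.2 CPM.

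The 4 abundant nucleolar proteins of several steps had negative log2 fold changes with no call and none at an unadjusted p below 0.05. Mybbp1a, a MYB-binding nucleolar protein, had 195, 67.6, 125, 240.3 and 67.5 CPM in controls and 119, 76.3, 124, 73.9, 68.5 and 103 CPM after NAP. No NAP library lay below the lowest control (log2 fold change −0.56, SE 0.33, adjusted p = 0.320). Ddx21, an RNA helicase that acts both in polymerase I transcription and in rRNA processing, had 153, 42.5, 77.3, 187 and 46.3 CPM in controls and 93.6, 51.7, 93.5, 49.6, 41.1 and 62.1 CPM after NAP. NAP library 5 alone lay outside the controls' range (log2 fold change −0.63, SE 0.39, adjusted p = 0.344). Npm1, which encodes nucleophosmin, the protein of the outer nucleolar layer, had 423, 209, 434, 547 and 228 CPM in controls and 271, 267, 371, 289, 304 and 498 CPM after NAP. It overlapped fully (log2 fold change −0.14, SE 0.27, adjusted p = 0.782), and without controls 1 and 4 the log2 fold changes of Mybbp1a, Ddx21 and Npm1 were 0.14, 0.26 and 0.23. Nucleolin, encoded by Ncl, ranged from 152 to 590.1 CPM in controls and from 199 to 359 CPM after NAP.

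**Figure D5:**
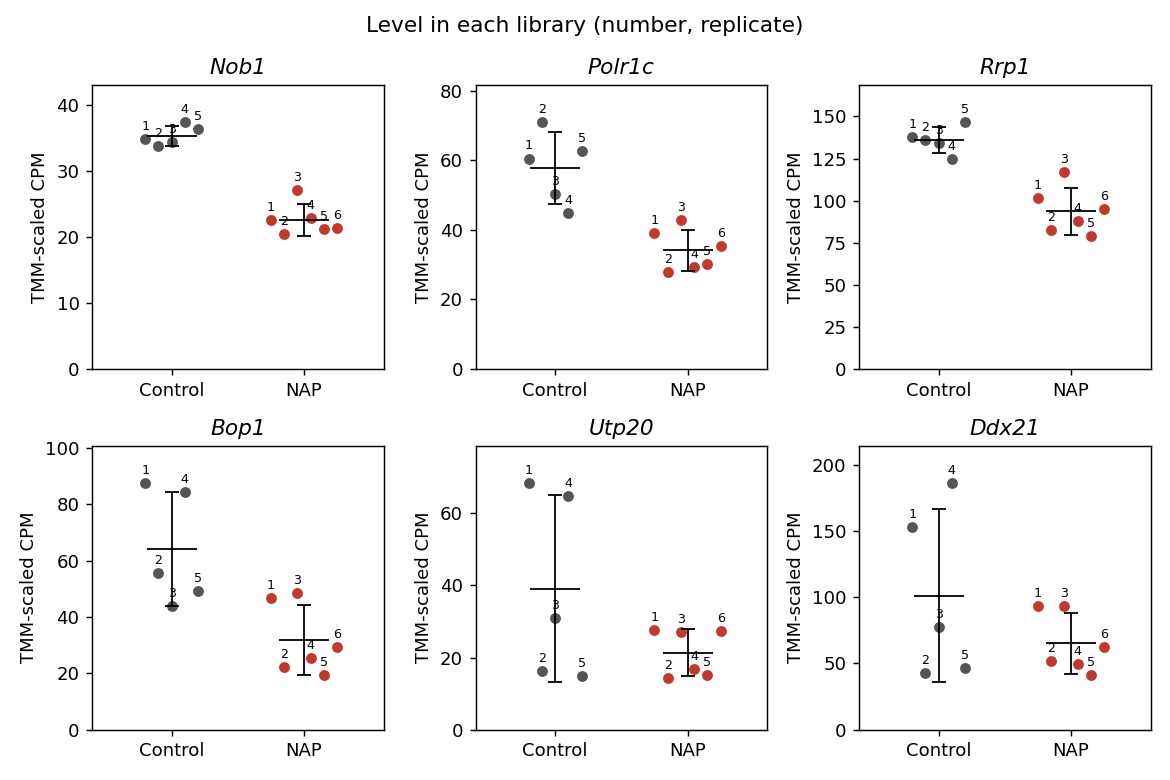
TMM-scaled CPM of 6 members is plotted for each library (points, with the replicate number) with the mean and SD of each group. Nob1, Polr1c and Rrp1 have NAP points below every control, while in Bop1, Utp20 and Ddx21 controls 1 and 4 lie highest and the groups overlap.

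The rest of the pathway was read from 5 lists of 130 other genes, of which 129 were tested. Of these, 105 had a negative log2 fold change, against 55.3% of all tested genes, with a median of −0.32. At an unadjusted p below 0.05, 32 were lower and 2 higher, where 12.7% of all tested genes were lower. Tbl3, Imp3 and Ruvbl2 were called lower, against 1.07% of all tested genes, and no gene of the lists was called higher. Tbl3, a processome protein, had 56.2, 53.9, 40.98, 51.02 and 63.7 CPM in controls and 32.8, 28.7, 35.5, 26.5, 28.1 and 30.2 CPM after NAP (1.75-fold lower, log2 fold change −0.81, SE 0.14, adjusted p = 0.0343). Imp3, which binds the U3 snoRNA, had 67.3, 64.7, 59.1, 51.7 and 61.7 CPM in controls and 33.2, 28.6, 46.8, 31.5, 31.4 and 37.00 CPM after NAP (1.75-fold lower, log2 fold change −0.81, SE 0.15, adjusted p = 0.0343). In both genes every NAP library lay below every control, and neither had its highest controls in numbers 1 and 4 together. Ruvbl2, an ATPase of the complex that assembles snoRNPs, had 57.4, 52.04, 51.4, 59.7 and 43.3 CPM in controls and 36.4, 21.8, 38.97, 25.3, 24.00 and 29.98 CPM after NAP (1.79-fold lower, log2 fold change −0.84, SE 0.18, adjusted p = 0.0417). Its groups did not overlap either, and controls 1 and 4 were its highest.

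By list, the other 17 polymerase I and rDNA transcription genes had 13 below 0, 5 lower at an unadjusted p below 0.05 and 0 called. Over all tested genes, for this list and the next ones, 55.3% were below 0 and 12.7% lower at that p. The 2 smallest p-values there were those of Polr2e, shared by polymerases I, II and III (log2 fold change −0.87, SE 0.21, adjusted p = 0.0523), and Polr1d, shared by I and III (log2 fold change −0.62, SE 0.17, adjusted p = 0.0681). Like their partner Polr1c, both had their highest levels in controls 2 and 5. Of genes with a positive value, Polr2k had 0.48 and the termination factor gene Ttf1 0.17. In the list of 11 snoRNP and snoRNP assembly genes 9 were below 0, with Pih1d1, which works with Ruvbl2, at −0.87 (adjusted p = 0.0896), and Nufip1 and Znhit3 above 0 at 0.23 and 0.04. Of 42 further small subunit genes 35 were below 0, and the positive genes with the smallest p-values were Riok2, a kinase of the late precursor (log2 fold change 0.44, SE 0.16, adjusted p = 0.124), and Dcaf13 (0.20).

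Among 46 further large subunit genes 37 were below 0, against 55.3% of all tested genes, and none was called. The helicase gene Ddx54 (log2 fold change −0.89, SE 0.22, adjusted p = 0.0521) and Zfp622, a cytoplasmic factor (log2 fold change −0.79, SE 0.21, adjusted p = 0.0598), had the smallest p-values, and Nvl and Sbds were above 0 at 0.23 and 0.31. Of 13 tested genes of the RNA exosome, which trims rRNA ends, 11 were below 0 and none was called. The ring subunit genes Exosc5 (log2 fold change −1.03, SE 0.27, adjusted p = 0.0598) and Exosc4 (log2 fold change −0.71, SE 0.20, adjusted p = 0.0691) led, while the cofactor gene C1d (log2 fold change 0.47, SE 0.18, adjusted p = 0.136) and Mphosph6 (0.22) were above 0.

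Myc itself had 71.5, 29.8, 58.8, 65.8 and 28.9 CPM in controls and 45.2, 35.1, 48.9, 29.2, 28.02 and 38.6 CPM after NAP. It showed the high controls 1 and 4 of most members and overlapping groups (log2 fold change −0.44, SE 0.26, adjusted p = 0.323). Mycl, which encodes L-MYC, was 1.91-fold lower and was called, with 25.8, 16.8, 17.05, 29.4 and 17.6 CPM in controls and 11.6, 8.14, 11.98, 9.60, 12.9 and 12.7 CPM after NAP. The groups did not overlap, and controls 1 and 4 were the highest controls for Mycl too (log2 fold change −0.93, SE 0.21, adjusted p = 0.0442). Mxd1, which encodes a MAX partner that opposes MYC, had 87.4, 253, 206, 122 and 261 CPM in controls and 277, 601, 308, 515, 495 and 295 CPM after NAP. Every NAP library lay above every control, controls 1 and 4 were the lowest controls, and the gene missed the adjusted threshold (log2 fold change 1.16, SE 0.32, adjusted p = 0.0664). Mga, another MAX partner, had a log2 fold change of 0.52 (adjusted p = 0.134), and the median of the 10 tested genes of MYC and its partners was 0.15. Of 13 tested MYC targets outside the ribosome 11 were below 0 and none was called, with −0.68 for Shmt1, −0.53 for Prmt5, 0.65 for Tfrc and 0.02 for Hspd1.

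In median base composition the members were close to other genes. The GC content of their longest transcripts had a median of 50.7% (range 40.4 to 59.9), against 49.8% over tested genes with a value. Polr1c, Nob1 and Rrp1 lay above both medians, at 53.7, 52.8 and 55.9%. These 3 genes were also short, at 1305, 1647 and 2179 bases, against a median of 3466 over all tested genes. With the trend of level on GC content removed in each library, 0 members were called, Nob1 had −0.51 (adjusted p = 0.0669) and Polr1c −0.59 (adjusted p = 0.0755), and the median over members was −0.48. Rrp1 moved further, to −0.27, and the members without overlap were then Nob1 and Utp18, against 1.83% of all tested genes. With the trend on gene length removed as well, the values were −0.42 for Nob1 (adjusted p = 0.153), −0.44 for Polr1c (adjusted p = 0.119) and −0.21 for Rrp1. All 3 genes then overlapped between the groups, and 0 of all tested genes were called. Wdr12 alone among the 42 members did not overlap, against 2.24% of all tested genes, a share near that of the members. Of the 42 members, 13 overlap another protein-coding gene, Bop1 with Mroh1, Bysl with Ccnd3 and Nhp2 with Rmnd5b among them, and the counts could share reads there. Nob1 and Polr1c overlap no such gene. In addition 7 members hold snoRNA genes in their interval, whose mean counts were at most 13.1 and at most 2.00% of the member's count.

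The 2 calls also depended on single libraries. Neither Nob1 nor Polr1c was past the threshold when control 1, 2, 3 or 5 or NAP library 2, 4, 5 or 6 was left out, and both were past it without control 4, NAP 1 or NAP 3. The number of members called ranged from 0 to 7 over these 11 fits and moved with the calls over all genes: 0 genes were called in either direction without control 1, 2 or 5 or NAP 2, 4 or 5, and 2.97% of all genes were called lower without NAP 3, where 7 members were called. The log2 fold change of Nob1 stayed between −0.70 and −0.62. That of Polr1c lay between −0.84 and −0.66. Both also missed the threshold with count totals as the sole scaling (adjusted p = 0.0733 for Nob1 and 0.0621 for Polr1c) and with no filter on low counts (0.141 and 0.0907). DESeq2 called 6 members lower, with Bop1, Nop2, Rrp1 and Rrp9 beside Nob1 and Polr1c, and it called 6.78% of the genes to which it gave an adjusted p lower.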

How the data were processed

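RNA of 5 control and 6 NAP libraries was compared, grouped and numbered by the labels. The authors deposited whole-number counts per gene, made per the submitters' processing notes with Trimmomatic 0.39, HISAT2 2.2.1 on GRCm39 and featureCounts of Subread 2.0.8. The strand setting, annotation release and handling of reads with several matches were not given in the sources used here. FPKM values were also deposited by the authors and served for the order of levels between genes. Genes were kept with filterByExpr defaults, scaled with TMM and compared by quasi-likelihood tests in edgeR 4.0.16 (R 4.3.3), with Benjamini-Hochberg adjustment over 14840 genes and a threshold of 0.05. Each SE was the log2 fold change over the root of its F statistic. Levels in CPM used TMM scaling, except the limit of a 0 (3 counts over the count total). Standard deviations are over n = 5 controls and 6 NAP libraries. Members, lists and rules were chosen with earlier results of these data known, so no list was tested as a set.

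Named members were the 4 smallest p-values of each step (2 in polymerase I and in the nucleolar proteins), calls, and the largest p of each step; Rrp1b, Wdr12, Gnl3, Tsr1, Ncl and the other unnamed genes given with values were added after their values were seen. In the other lists the 2 smallest p-values in each direction were named, plus Myc. Gene positions are those of the deposited table, while GC content (GENCODE M21, longest transcript) and promoters (RefSeq) were matched by identifier. Motifs were searched on both strands: those described, and TGCGCATGC, AAGATGGCG and TCTCGCGAG, found in 0, 0 and 1 of 36 promoters. The alternatives were other scalings, other filters, DESeq2 1.42.0, limma 3.58.1 (voom weights, log2(FPKM + 1), log2(FPKM + 0.1)), a replicate block and each library left out. Those added after seeing the data left out pairs of controls, used a marker score as covariate or removed GC and length trends (lowess, span 0.3). Counts of different libraries differed by more than sampling noise, so all 11 were kept. Between controls 2 and 5 the chi-square per degree of freedom was 8.32, against 46.2 to 349 for the other control pairs. Among NAP libraries 2, 4 and 5 it was 14.8 to 24.7, against 67.1 to 157 for the other NAP pairs. The labels do not say whether such close libraries share an animal or culture, so independent replicates may be fewer than the libraries. The fit was also run on simulated counts drawn independently for each gene. Those counts lacked the divisions between libraries seen here, so that run does not show how the fit behaves with them.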

Additional observations from a re-analysis of the deposited data

Results flagged for a closer look

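Each member's CPM was examined in each group, 84 groups of values in all, for a highest or lowest library set apart from the others by Dixon's criterion, which chance meets in about 1 of 20 groups. Such a gap was found in 2. For Nob1, NAP library 3 was the highest of its group, at 27.2 CPM, with the next at 22.9 CPM, a gap of 0.629 of the range against a critical value of 0.625. That library still lay below the lowest control, and without it the log2 fold change of Nob1 was −0.70 (adjusted p = 0.0268). For Wdr75, NAP library 6 was the highest, at 35.3 CPM, with the next at 24.6 CPM, a gap of 0.662 of the range.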

How the results depend on the processing

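Of the 42 members, 2 were called lower in the reported fit, 11 had an unadjusted p below 0.05, 3 had groups without overlap and the median log2 fold change was −0.53. The number called was 0 with count totals as the sole scaling, with no filter on low counts, with the replicate block, and with GC or GC and length trends removed. It was 6 with DESeq2, 7 without controls 2 and 5 and 7 lower with the marker score as covariate, fits that also called 832, 404 and 1635 genes lower over all genes, against 159 in the reported fit. With each library left out in turn it ranged from 0 to 7, the number at an unadjusted p below 0.05 from 8 to 21, the median from −0.64 to −0.30 and the number without overlap from 3 to 4. Apart from rescaling, leaving a library out cannot lower that last number, and 2.40% to 4.36% of all genes had no overlap in these fits. Without controls 1 and 4, 3 were lower and 1 higher at an unadjusted p below 0.05, and the median was 0.11. Without controls 2 and 5, 39 were lower and 0 higher, and the median was −0.80. In these fits 14.9% and 15.2% of all genes were lower at an unadjusted p below 0.05. Without controls 2 and 5, 14 members were free of overlap, against 6.33% of all genes. With the marker score 11 members were lower and 4 higher at an unadjusted p below 0.05, where 17.9% of all genes were lower. The number free of overlap was 1 with count totals as the sole scaling (Polr1c), against 2.90% of all genes. It was also 1 with GC and length trends removed (Wdr12), against 2.24%. Of the 130 other pathway genes, 3 were called lower in the reported fit, where 1.07% of all tested genes were called lower. This number was 1 with count totals and 5 with voom, the stricter filter and either FPKM scale. It was 0 with no filter, the replicate block or GC trends removed. Without controls 1 and 4 it was 7, where 5.46% of all genes were called lower, a share near that of these genes. It was 10 without controls 2 and 5, against 2.61% of all genes, and 19 with DESeq2, against 6.78%. With the marker score it was 21 (and 5 higher: Dimt1, Dis3, Gnl3l, Krr1 and Naf1), where 1635 of all genes were called lower. With a library left out it was 0 to 11, the 11 without NAP 3, where 2.97% of all genes were called lower.

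Among all 42 members, 8 changed sign without control 4, 22 without controls 1 and 4, 15 with the marker score, 4 with the replicate block and 0 to 3 under each other alternative. For the 21 members named by rule the values were as follows. Ltv1, at 0.02, was −0.0749 with count totals, −0.0449 with the replicate block, −0.0396 without control 2, −0.00204 without NAP 3, −0.0466 without NAP 6, −0.10 without controls 2 and 5, −0.0866 with the GC trend removed and −0.0465 with both trends removed. Noc3l was 0.0358 on log2(FPKM + 0.1) and 0.012 with the replicate block. Without control 4, Nop58, Noc3l and Npm1 were 0.12, 0.18 and 0.0447. Without controls 1 and 4, Polr1a, Polr1b, Nop58, Utp20, Noc3l, Mybbp1a, Ddx21 and Npm1 were 0.18, 0.39, 0.41, 0.0691, 0.45, 0.14, 0.26 and 0.23. With the marker score, Polr1b, Nop58, Noc3l and Npm1 were 0.18, 0.36, 0.35 and 0.19. The cause of these changes was not tested. With each library left out in turn, Ltv1 ranged from −0.0466 to 0.12, Nop58 from −0.36 to 0.12, Noc3l from −0.31 to 0.18 and Npm1 from −0.28 to 0.0447. Nob1 and Polr1c were below 0 under each of the 26 alternatives.

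Same-numbered control and NAP libraries did not deviate together in every pair: over 5 pairs the correlation was −0.30 to 0.42, above 0.1 in 3, and 2 of 5 correlated best with their own number. The replicate block left Nob1 at −0.63 (adjusted p = 0.156) and Polr1c at −0.77 (adjusted p = 0.148), with 0 calls over all genes and 2903 genes at an unadjusted p below 0.05. Depth is not limiting for members at 45 counts or more, but 5 and 6 libraries limit the precision of each mean.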
